A study of Mus musculus with 92 samples.

Results

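The transcripts described here belong to genes that mouse embryos switch on in a burst at the 2-cell stage, followed in single blastomeres of 8-cell embryos. They were chosen by name: Arg2, Zfp352 and every Tdpoz, Zscan4 and Tcstv gene with 1 family digit or letter. Of the 15 such symbols in the mouse annotation GENCODE M21, 4 have a row among the 7886 genes of the deposited count table: Tdpoz1, Tdpoz2, Tdpoz4 and Arg2. The other 11 (Tdpoz3, Tdpoz5, Zfp352, Tcstv1, Tcstv3 and the 6 Zscan4 genes) have no row in it and were not analysed here. Every gene in the table reaches 2 CPM (read counts scaled to the same library total) in at least 22 columns, so the 4 genes are those of the 15 that passed a filter on low values. Why each of the other 11 has no row was not tested.

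Wild-type C57BL/6N zygotes were microinjected with 1 of 3 microRNAs or with a negative control, grown to the 8-cell stage and taken apart for Smart-seq2, which sequences full-length cDNA of 1 cell without molecular identifiers. After a pair of Let7d columns that agreed within sampling noise was counted as 1 blastomere, 81 remained: 18 injected with let-7d (Let7d, 3 mouse ids), 20 with let-7e (Let7e, 4 mouse ids), 21 with the microRNA labelled mi699a-5p (4 mouse ids) and 22 with the negative control (NC, 3 mouse ids). A mouse id holds 2 to 8 blastomeres and is the replicate below, numbered as in the labels, which do not say whether it is an embryo or a dam. Each blastomere had 1575609 to 4950404 reads (median 2736612), so that a count of 0 allows a level of up to 0.606 to 1.90 CPM, as far as counting error goes. The samples carried transcripts of both blastomere and trophectoderm markers. Of 6 blastomere and pluripotency markers 5 had a row. Pou5f1, Klf5, Sall4 and Tfap2c were read in 100% of blastomeres and Nanog in 90.1%. Tfap2c is also on the trophectoderm list used below. Of 5 trophectoderm markers 4 had a row, read in 61.7% (Krt18) to 100% (Tead4) of blastomeres. The 6 defining cumulus and granulosa, 4 sperm and 3 blood markers had no row in the table. Genes of low level were filtered out of it, so a missing row does not show that such cells were absent. The longer lists used below do have measured genes. Averaged over mouse ids, Nr5a2 stood at 147 CPM and Amhr2 at 51.1 CPM (cumulus and granulosa), and Odf2 at 31.8 CPM (sperm). They are 2 of 16 listed cumulus and granulosa genes and 1 of 12 listed sperm genes. Nr5a2 was read in 100%, Amhr2 in 98.8% and Odf2 in 84% of blastomeres. Whether the blastomeres themselves made these transcripts was not tested. The 5 measured oocyte markers summed to 112 to 145 CPM in Let7d, 48.7 to 156 CPM in Let7e, 62.3 to 79.2 CPM in mi699a-5p and 74.2 to 160 CPM in NC.

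At the 2-cell stage the mouse embryo starts its major wave of transcription, and a set of genes that includes the Zscan4, Tcstv and Tdpoz families and Zfp352 is transcribed in a short pulse that is largely over when the next divisions follow. The Tdpoz genes encode proteins with a TRAF (MATH) domain and a POZ (BTB) domain, the arrangement of Spop, an adaptor that brings substrates to cullin 3 ubiquitin ligases. Arg2 encodes the mitochondrial arginase, which splits arginine into urea and ornithine, the precursor of the polyamines.

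The injected let-7 microRNAs and the start of the 3 Tdpoz reading frames show what the comparisons below can and cannot separate. The mature microRNAs are credited to RefSeq (GRCm38.p6), with the seed, bases 2 to 8, in capitals. They come from chr13:48536078-48536099 on the minus strand and chr17:17830366-17830387 on the plus strand.
mmu-let-7d-5p: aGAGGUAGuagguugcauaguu
mmu-let-7e-5p: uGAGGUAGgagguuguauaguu
Both share the seed and differ at 3 of 22 positions. The 7 bases that pair with it, CTACCTC, were searched on the sense strand of the GENCODE M21 transcripts and occur 0 times in those of Tdpoz1, Tdpoz2, Tdpoz4 and Arg2. Among protein-coding transcripts within 10% of the same length, 16.1% and 17.2% hold them for the 2 Tdpoz1 transcripts, 9.57% for Tdpoz2, 8.94% for Tdpoz4 and 11% for Arg2. The annotated Tdpoz4 transcript, of 1113 bases, is its reading frame alone. That of Tdpoz2, of 1145 bases, holds a reading frame of 1083. Few or no untranslated bases of either gene were searched, so the search cannot show that their full transcripts lack the site.

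The 3 Tdpoz genes lie on chromosome 3 of GRCm38, among close copies. Tdpoz2 (ENSMUSG00000103362.1) is at 93651542-93652686 on the minus strand with 1 exon, Tdpoz1 (ENSMUSG00000094084.2) at 93669333-93676310 on the minus strand with 3 annotated exons, and Tdpoz4 (ENSMUSG00000060256.1) at 93796398-93797510 on the plus strand with 1 exon. Arg2 (ENSMUSG00000021125.6) is at 79130777-79156301 on the plus strand of chromosome 12 and has 8 exons. Below are the first 75 coding bases of each Tdpoz gene, from the start codon, with capitals where a base differs from Tdpoz1 at the same position (GRCm38, chr3:93671401-93671475 minus, chr3:93652589-93652663 minus and chr3:93796398-93796472 plus, in the order printed).
Tdpoz1: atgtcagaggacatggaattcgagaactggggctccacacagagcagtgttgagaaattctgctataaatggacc
Tdpoz2: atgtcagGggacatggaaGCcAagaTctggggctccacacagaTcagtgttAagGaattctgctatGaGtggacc
Tdpoz4: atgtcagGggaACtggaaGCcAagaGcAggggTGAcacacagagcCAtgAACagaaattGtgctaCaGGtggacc
In this stretch Tdpoz2 differs from Tdpoz1 at 10 bases and Tdpoz4 at 20. Over the whole reading frames, of 1098, 1083 and 1113 bases, Tdpoz1 is 83.2% identical to Tdpoz2 and 78.9% to Tdpoz4, and Tdpoz2 is 81.2% identical to Tdpoz4. Of all 50-base words in their transcripts, 44.4% for Tdpoz1, 48.3% for Tdpoz2 and 41.2% for Tdpoz4 also occur in another annotated gene, a Tdpoz or a predicted (Gm) gene, against 0% for Arg2. How the authors' counting treated reads that match several copies is not given in the sources used here, so the split of reads among the Tdpoz rows is uncertain.

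All 4 transcripts were read at the 8-cell stage, at levels below the median gene. Their presence follows from the filter that gave them a row. No 2-cell sample was measured, so whether these transcripts were left from that stage or made later was not tested. Tdpoz2 had at least 1 read in 76 of 81 blastomeres (93.8%), with a mean share per mouse id of 95.5% ± 16.7 (SD, n = 14 here and for the next 3 genes). Tdpoz4 was read in 72 (88.9%, 89.6% ± 12.1 per mouse id) and Tdpoz1 in 71 (87.7%, 87.7% ± 16.2 per mouse id). Arg2 was read in 45 (55.6%, 59.8% ± 25.2 per mouse id). Blastomeres of 1 mouse id are not independent, so the spread is given over mouse ids. Only 6.24% of genes in the table had a lower share than Arg2, and the median gene was read in 96.3% of blastomeres. No blastomere lacked all 4, 1 carried 1 of them, 13 carried 2, 31 carried 3 and 36 carried all 4. With at least 10 CPM asked for, the shares were 75.3% for Tdpoz2, 69.1% for Tdpoz1, 67.9% for Tdpoz4 and 37.0% for Arg2.

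In CPM averaged over the 81 blastomeres, Tdpoz1 stood at 29.4, Tdpoz2 at 24.7, Tdpoz4 at 24.4 and Arg2 at 19.9, against a median of 41.3 over all genes. Set per kilobase of annotated exon over the 14 mouse ids, the order changed. Tdpoz4 averaged 22.6 ± 11.3 and Tdpoz2 21.5 ± 10.1 CPM per kilobase (SD, n = 14), which differ by less than their spread. Tdpoz1, with the longest exon annotation of the 3, averaged 12 ± 8.18 and Arg2 11.4 ± 21.0 CPM per kilobase.

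**Figure D1:**
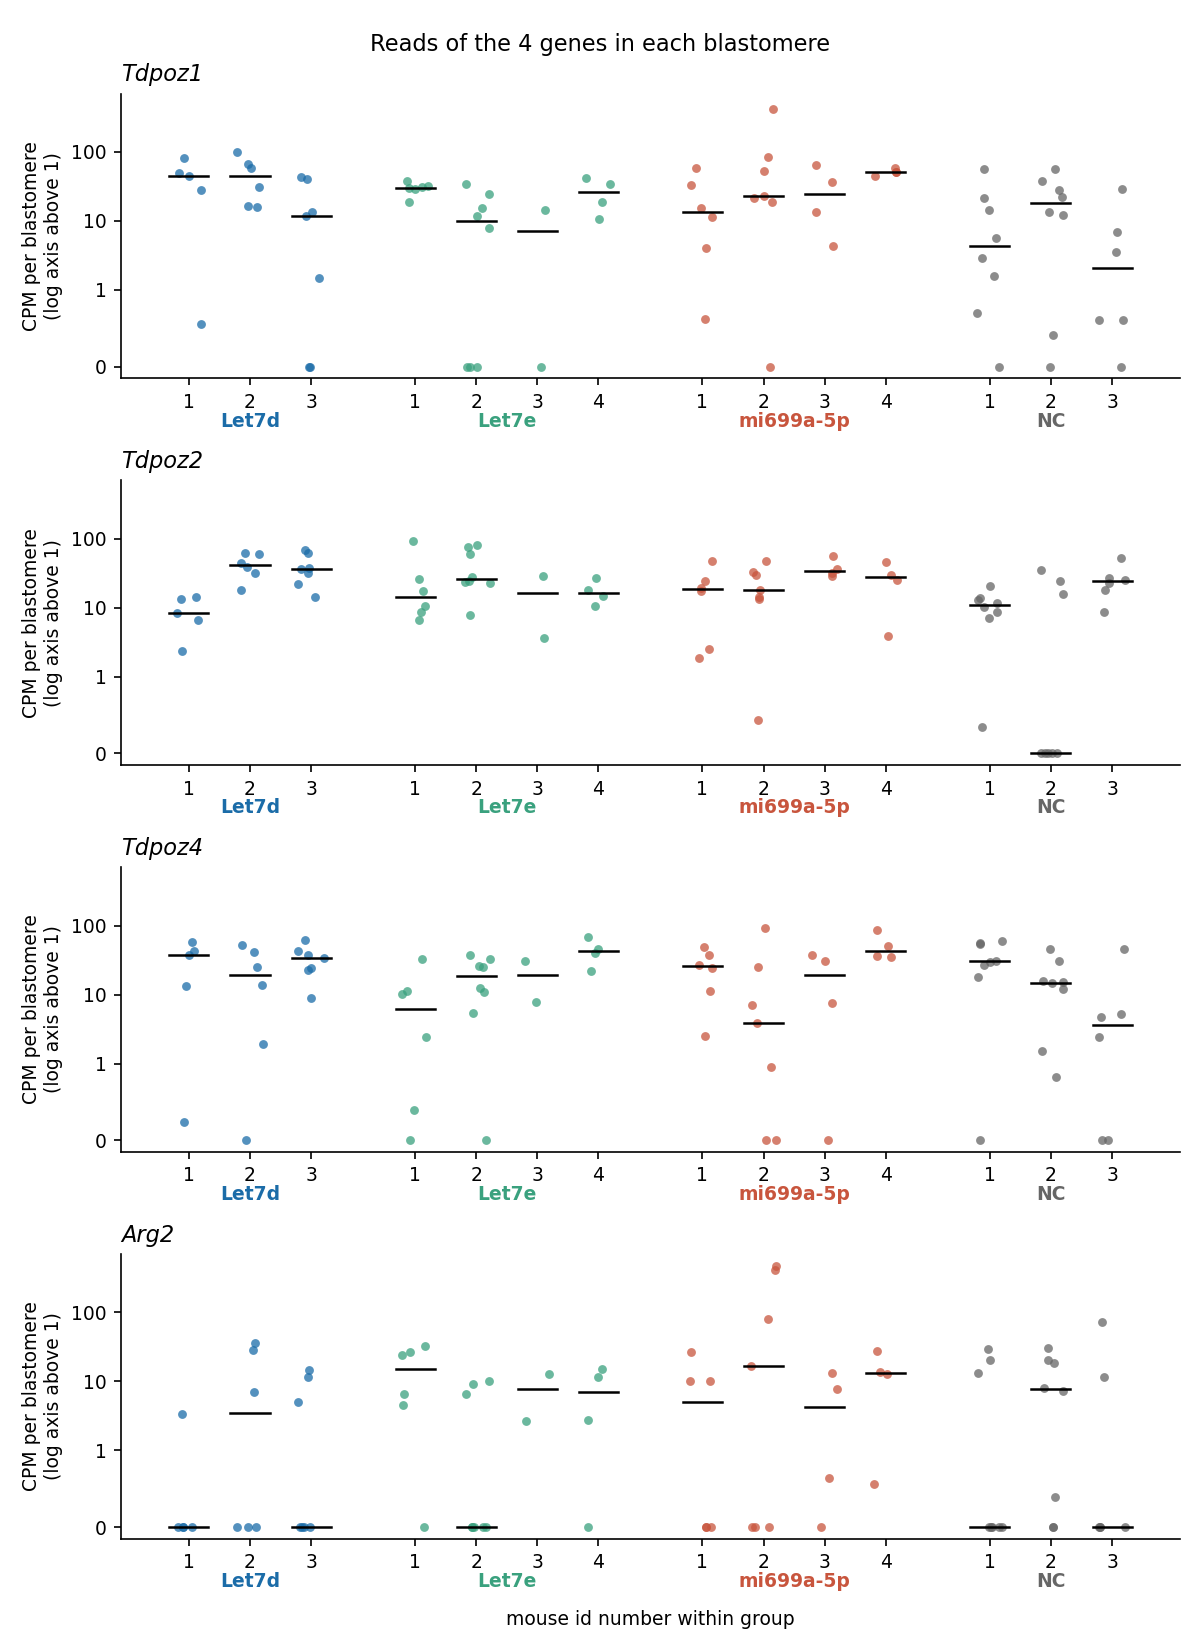
CPM of Tdpoz1, Tdpoz2, Tdpoz4 and Arg2 in each of the 81 blastomeres (points), by mouse id within Let7d, Let7e, mi699a-5p and NC, with the median of each mouse id as a bar; the axis is linear up to 1 CPM and logarithmic above. The 5 blastomeres at 0 for Tdpoz2 all sit in NC replicate 2, and the Arg2 points at 409 and 476 CPM in mi699a-5p replicate 2.

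The 4 transcripts were distributed differently over the blastomeres. Within a mouse id the SD of log2(CPM + 1) was 1.35 for Tdpoz2, 1.84 for Tdpoz4, 1.94 for Tdpoz1 and 2.3 for Arg2, while the SD of the mouse id means within a group was 0.97, 1.18, 1.16 and 0.88 in the same order of genes. The 3 highest blastomeres held 60.0% of the summed Arg2 CPM, but 25.4% for Tdpoz1, 12.6% for Tdpoz4 and 12.4% for Tdpoz2. Across the 81 blastomeres, after the mean of each mouse id was taken off, the correlation of log2(CPM + 1) lay between 0.045 (Tdpoz1 with Tdpoz4) and 0.20 (Tdpoz1 with Tdpoz2) over the 6 pairs of genes. These points share library and depth, and correlations this weak say little in single cells.

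Tdpoz1 was the member with the largest difference from NC in relation to its error, in the mi699a-5p blastomeres. Its reads summed per mouse id gave 42.9, 45.3 and 15.3 CPM in Let7d, 29.9, 12.5, 7.58 and 25.5 CPM in Let7e, 21.4, 74.2, 27.1 and 51.5 CPM in mi699a-5p, and 12.3, 21.7 and 6.97 CPM in NC. The lowest mi699a-5p mouse id lay just under the highest NC one, and the other 3 lay above all NC values. The means were 34.5 ± 16.7 CPM in Let7d (SD, n = 3), 18.9 ± 10.5 in Let7e (n = 4), 43.6 ± 24.2 in mi699a-5p (n = 4) and 13.6 ± 7.44 in NC (n = 3).

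By edgeR's quasi-likelihood test over all 7886 genes, Tdpoz1 had a log2 fold change of 1.66 ± 0.59 (SE) in mi699a-5p against NC, with a 95% interval of 0.43 to 2.90. Its unadjusted p was 0.0110 and its adjusted p 0.858, so it did not pass. It was the only one of the 4 members under an unadjusted p of 0.05 in this comparison, where 5.5% of all genes were (434 genes) and 0% passed the adjusted threshold of 0.05. In Let7d against NC the log2 fold change of Tdpoz1 was 1.26 ± 0.61 (p = 0.0529, edgeR adjusted p = 1), with 4.69% of genes under an unadjusted 0.05 and 0.0127% (1 gene, no member) past the adjusted threshold. In Let7e against NC it was 0.48 ± 0.57 (p = 0.404, adjusted p = 0.999 by edgeR), with 4.02% of genes under an unadjusted 0.05. The microRNAs of shared seed were also set against each other: Let7e against Let7d gave -0.77 ± 0.55 (interval -1.94 to 0.39, p = 0.181), where 5.39% of genes were under an unadjusted 0.05 and no member was. The 3 comparisons against NC share the NC mouse ids.

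In single blastomeres the Tdpoz1 reads ran from 0 over a median of 29.4 to 101 CPM in Let7d, from 0 over 18.6 to 42.1 CPM in Let7e, from 0 over 33.3 to 418 CPM in mi699a-5p and from 0 over 6.23 to 56.9 CPM in NC. The groups overlapped, with 4, 0, 8 and 2 blastomeres above 50 CPM in that order. All 4 blastomeres of mi699a-5p replicate 4 lay between 45.0 and 58.2 CPM. The value of 418 CPM belongs to 1 blastomere of mi699a-5p replicate 2. Without the 3 blastomeres above 100 CPM of Tdpoz1 or Arg2, a setting chosen after seeing the data, the log2 fold change of Tdpoz1 in mi699a-5p against NC was 1.19 ± 0.56 (p = 0.0481, edgeR adjusted p = 0.948). At least 1 read of it was found in 16 of 18 Let7d (88.9%), 16 of 20 Let7e (80%), 20 of 21 mi699a-5p (95.2%) and 19 of 22 NC blastomeres (86.4%). With at least 10 CPM asked for, the shares were 77.8% in Let7d, 75% in Let7e, 81% in mi699a-5p and 45.5% in NC. These shares pool the blastomeres of all mouse ids of a group and carry no spread. The NC mouse ids differed, with a median blastomere at 4.26 CPM in replicate 1, 17.9 in replicate 2 and 2.11 in replicate 3.

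**Figure D2:**
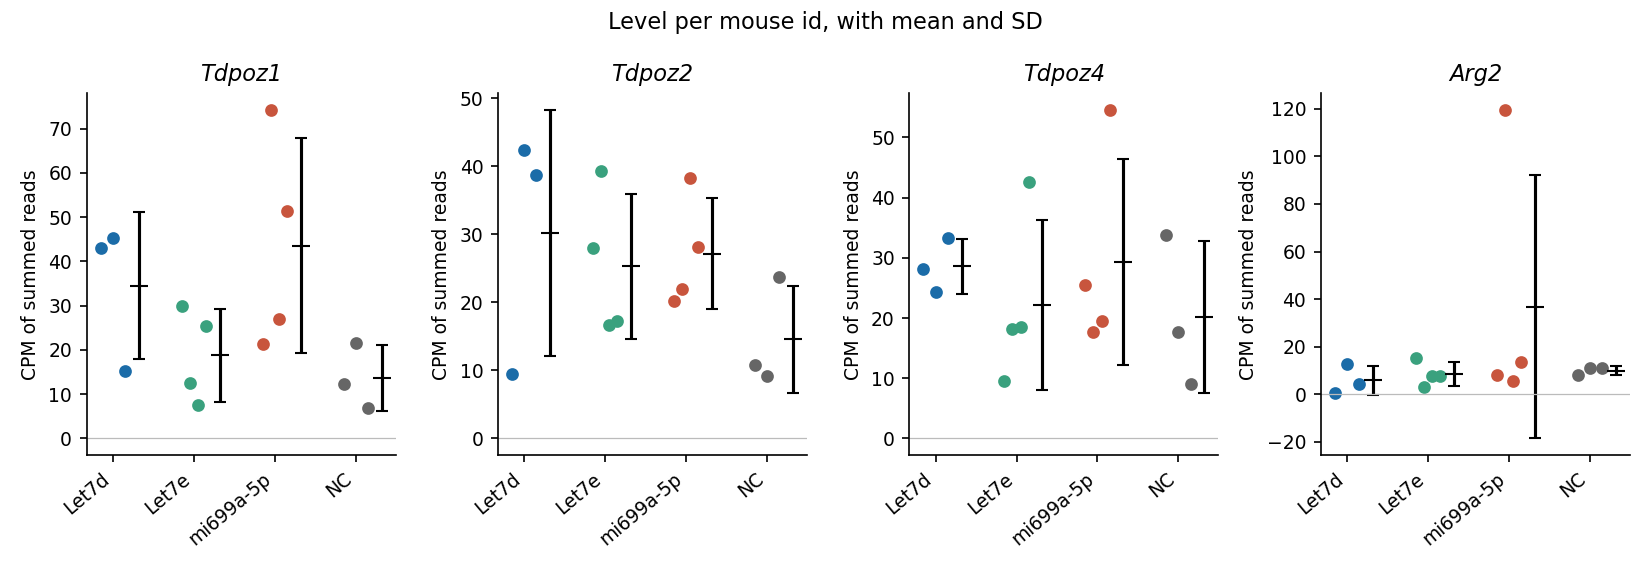
CPM of reads summed per mouse id for each gene in Let7d, Let7e, mi699a-5p and NC (points), with the group mean and SD beside them as a bar; each panel has its own linear axis. Mouse ids of the injected groups overlap those of NC for every gene, and 1 mi699a-5p mouse id stands at 119 CPM of Arg2.

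Tdpoz2 was read in every blastomere of the injected groups, 18 of 18 in Let7d, 20 of 20 in Let7e and 21 of 21 in mi699a-5p. In NC it was read in 17 of 22 (77.3%), and the NC share rests on 1 mouse id. The 5 NC blastomeres without a read all came from replicate 2, where 3 of 8 had one, at 15.8, 24.1 and 35.5 CPM. These 8 blastomeres had 2392125 to 3010756 reads each, and 6 of the 8 lay below the median of 2736612 over all 81. Every blastomere was also thinned to 1575609 reads. Tdpoz2 was then read in 100% of Let7d, Let7e and mi699a-5p blastomeres and in 72.7% of NC blastomeres. Beyond this, the part of depth in these zeros was not tested. In the same 8 blastomeres Tdpoz4 was read in 8 and Tdpoz1 in 7. Each of the other 2 NC mouse ids had Tdpoz2 in 100% of its blastomeres.

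Per mouse id, Tdpoz2 gave 9.43, 42.4 and 38.8 CPM in Let7d, 28.0, 39.3, 16.7 and 17.2 CPM in Let7e, 20.2, 22, 38.3 and 28.2 CPM in mi699a-5p, and 10.8, 9.25 and 23.7 CPM in NC. The range of each injected group ran into that of NC. Its log2 fold changes against NC were 0.90 ± 0.58 in Let7d (p = 0.135), 0.76 ± 0.54 in Let7e (p = 0.177) and 0.84 ± 0.55 in mi699a-5p (p = 0.141; edgeR, adjusted p = 0.922 or above in all 3). Let7e against Let7d gave -0.14 ± 0.53. The 95% intervals of the differences from NC all held 0. They ran from -0.31 to 2.11 in Let7d, from -0.38 to 1.91 in Let7e and from -0.31 to 1.99 in mi699a-5p.

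Tdpoz4 showed the smallest differences from NC of the 4. It gave 28.1, 24.2 and 33.3 CPM in Let7d, 9.55, 18.1, 18.5 and 42.5 CPM in Let7e, 25.4, 17.7, 19.5 and 54.5 CPM in mi699a-5p, and 33.8, 17.6 and 8.99 CPM in NC. The 3 Let7d mouse ids lay inside the NC range. Its log2 fold changes against NC were 0.40 ± 0.59 in Let7d, 0.11 ± 0.55 in Let7e and 0.51 ± 0.55 with mi699a-5p, and -0.29 ± 0.55 in Let7e against Let7d, with unadjusted edgeR p-values from 0.368 to 0.844 and adjusted p from 0.985 to 1. It was read in 17 of 18 Let7d, 18 of 20 Let7e, 18 of 21 mi699a-5p and 19 of 22 NC blastomeres.

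The reads of Tdpoz1, Tdpoz2 and Tdpoz4 were also added up, as a description with no test, chosen after the single values were seen. This does not settle which reads were assigned to the wrong copy. Tdpoz2 and Tdpoz4 share 50-base words with each other, but Tdpoz1 shares none with either. Tdpoz1 shares such words with other genes, among them Gm37596 and Gm5543. Tdpoz4 shares them with Gm37596, Gm5543, Gm5541 and Gm9131, among others, and Tdpoz2 with Gm5541, among others. The rows of these Gm genes are not in the sum. The sum was 80.5, 112 and 87.4 CPM in Let7d, 67.4, 69.9, 42.8 and 85.2 CPM in Let7e, 67.1, 114, 84.9 and 134 CPM in mi699a-5p, and 56.9, 48.6 and 39.6 CPM in NC. Every Let7d and every mi699a-5p mouse id lay above every NC one, while 1 Let7e mouse id lay within the NC range. Of the 4 members alone, 0 had groups that did not overlap. Over all genes taken singly, every mouse id lay above every NC one for 8.67% in Let7d, 2.87% in Let7e and 4.59% with mi699a-5p, and below for 3.87%, 2.47% and 3.69%. No such share was counted for sums of genes. Between Let7e and Let7d the shares were 2.13% above and 4.57% below.

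**Figure D3:**
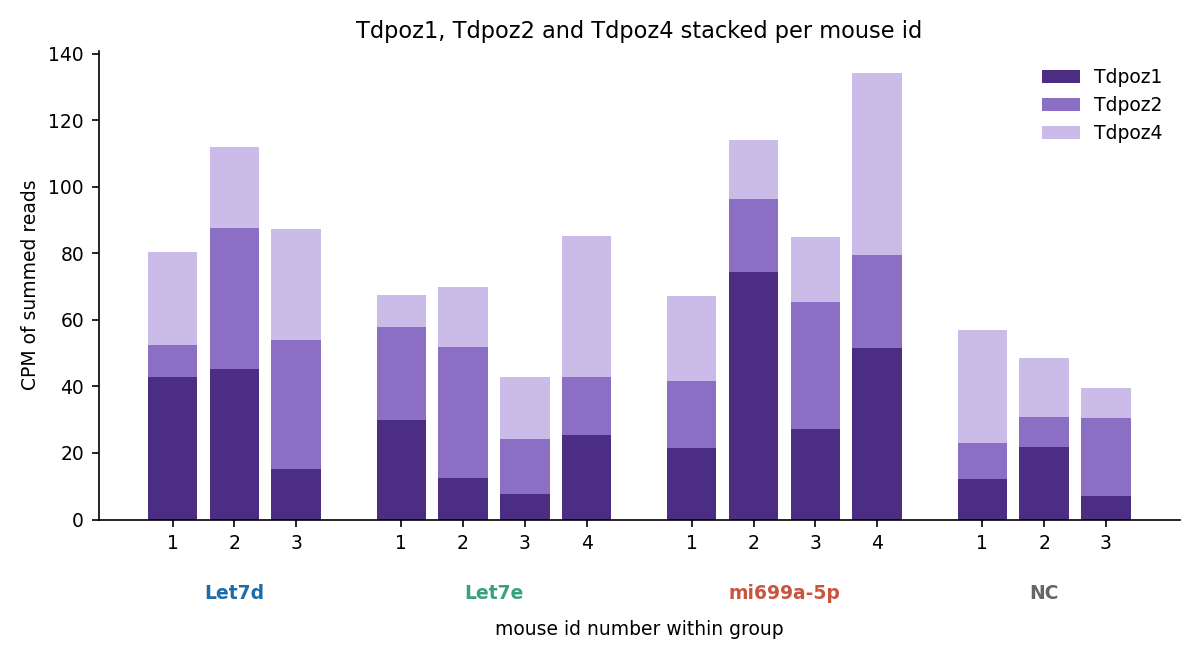
Stacked CPM of Tdpoz1, Tdpoz2 and Tdpoz4 in each mouse id of Let7d, Let7e, mi699a-5p and NC, from reads summed per mouse id. The 3 NC bars end at 39.6 to 56.9 CPM, and the Let7d and mi699a-5p bars at 67.1 CPM or above; which of the 3 genes makes up a bar differs between mouse ids of a group.

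The table has 4 more rows that lie in or next to the Tdpoz cluster and align with the Tdpoz1 reading frame over 1019 to 1064 bases: the protein-coding Gm37596 (84.6% identical) and the pseudogenes Gm5541 (81.2%), Gm9131 (81.7%) and Gm5543 (83.6%). Gm37596 was read in 74 blastomeres and averaged 28.8 ± 14.5 CPM in Let7d, 19.5 ± 10.5 in Let7e, 22 ± 8.77 in mi699a-5p and 15.6 ± 3.76 in NC. Its log2 fold changes against NC were 0.75 ± 0.56, 0.29 ± 0.52 and 0.45 ± 0.52 in that order of groups. Gm9131 (chr3:94119979-94121067, plus strand) stood further apart, at 28.0 ± 4.14 CPM in Let7d, 5.77 ± 2.89 in Let7e, 18 ± 9.57 in mi699a-5p and 2.37 ± 2.46 in NC. Its log2 fold changes were 3.49 ± 1.05 in Let7d (p = 0.00380, edgeR adjusted p = 0.886) and 2.93 ± 1 in mi699a-5p (p = 0.00886, edgeR adjusted p = 0.858), and -2.19 ± 0.90 in Let7e against Let7d (p = 0.0261, edgeR adjusted p = 0.924). Gm5543 gave 1.29 ± 1.38, 0.51 ± 1.29 and 2.57 ± 1.40 and Gm5541 -1.67 ± 1.32, -0.06 ± 1.21 and -0.09 ± 1.2 in Let7d, Let7e and mi699a-5p against NC. How far these 4 rows share reads with the named members was not tested.

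**Figure D4:**
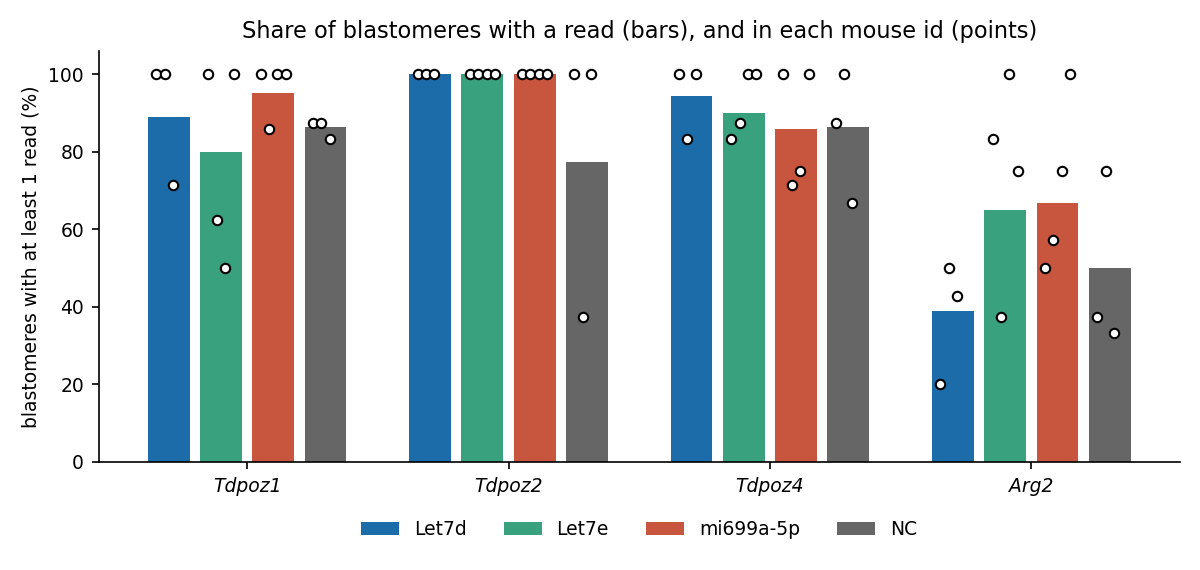
Share of blastomeres with at least 1 read of each gene in Let7d (18 blastomeres), Let7e (20), mi699a-5p (21) and NC (22), as bars, with the share in each mouse id as a point. Tdpoz2 reaches 100% in the 3 injected groups and 77.3% in NC, where 1 mouse id at 37.5% stands below the others at 100%, and Arg2 lies between 38.9% and 66.7%.

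Arg2 was the sparsest of the 4 and the one whose group level hung on single blastomeres. It was read in 7 of 18 Let7d blastomeres (38.9%), 13 of 20 Let7e (65%), 14 of 21 mi699a-5p (66.7%) and 11 of 22 NC blastomeres (50%). Its summed reads gave 0.589, 12.5 and 4.49 CPM in Let7d, 15.4, 3.08, 7.90 and 7.54 CPM in Let7e, 8.33, 119, 5.42 and 13.7 CPM in mi699a-5p, and 8.01, 11.1 and 10.9 CPM in NC. With the exception of mi699a-5p replicate 2, the injected mouse ids lay on both sides of the NC range, from 0.589 to 15.4 CPM.

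The 7 blastomeres of mi699a-5p replicate 2 had 0, 0, 0, 16.8, 81.4, 409 and 476 CPM of Arg2. The highest values elsewhere were 35.7 CPM in Let7d, 32.4 CPM in Let7e and 72.9 CPM in NC. The blastomere at 409 CPM of Arg2 is the one at 418 CPM of Tdpoz1, with 0 reads of Tdpoz4 and 17.9 CPM of Tdpoz2. The one at 476 CPM of Arg2 had 85.1 CPM of Tdpoz1, 93.3 CPM of Tdpoz4 and 48.1 CPM of Tdpoz2. Their totals, 1840403 and 2080049 reads, were the lowest of the 7.

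The log2 fold change of Arg2 was -0.90 ± 1.05 in Let7d (interval -3.10 to 1.29), -0.24 ± 0.97 in Let7e (-2.28 to 1.79) and 1.83 ± 1.02 in mi699a-5p against NC (-0.32 to 3.99), and 0.66 ± 0.99 in Let7e against Let7d. None passed by edgeR (unadjusted p from 0.0901 to 0.804, adjusted p of 0.9 or above). In Let7d it was -2.07 without Let7d replicate 2 and -0.37 without Let7d replicate 1. In mi699a-5p it was -0.15 without replicate 2, and without the 3 blastomeres above 100 CPM it was 0.31 ± 0.90. The group level of Arg2 in mi699a-5p rests on this 1 mouse id, where 4 of 7 blastomeres had a read.

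**Figure D5:**
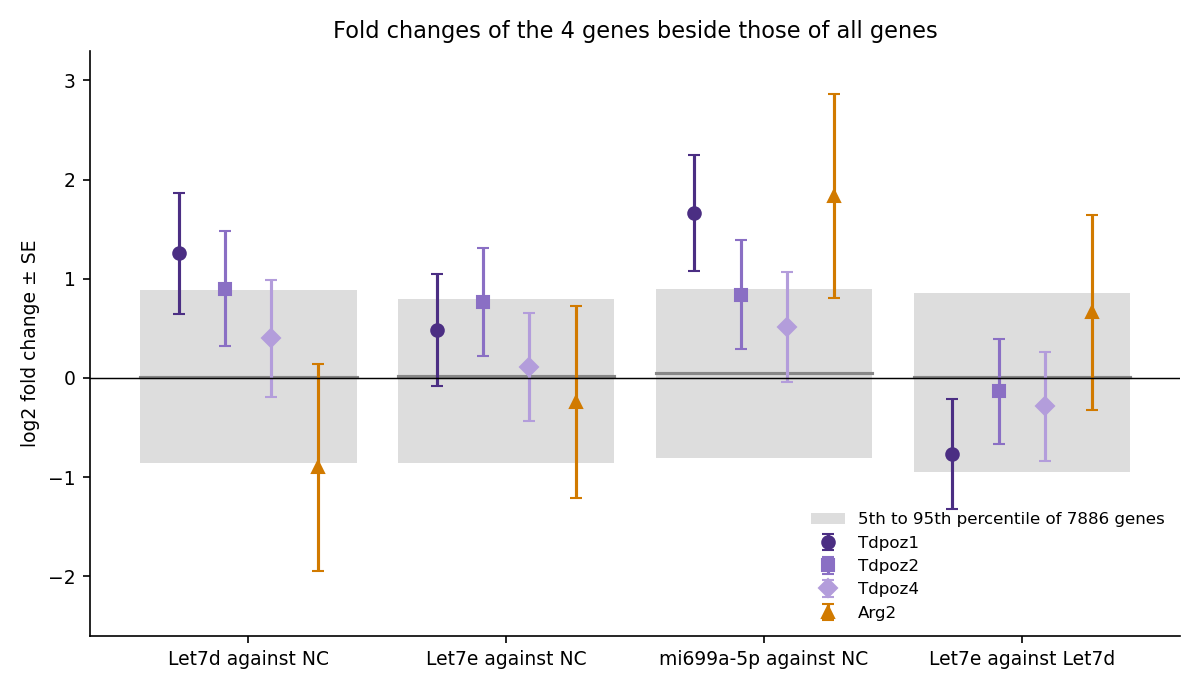
Log2 fold change with SE of Tdpoz1, Tdpoz2, Tdpoz4 and Arg2 in each comparison, over a grey band from the 5th to the 95th percentile of all 7886 genes with their median as a line. Tdpoz1 and Arg2 in mi699a-5p (1.66 and 1.83) and Tdpoz1 in Let7d (1.26) lie above the band, Tdpoz2 in Let7d (0.90) at its upper edge and Arg2 in Let7d (-0.90) just below it; no member passes the adjusted threshold.

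The shares of blastomeres with a read were compared over mouse ids by an exact two-sided permutation test, 12 tests in all, for which the smallest possible p is 0.1 with 3 against 3 mouse ids and 0.0286 with 4 against 3. None reached 0.05. The mean share of Tdpoz1 was 96.4% ± 7.14 in mi699a-5p and 86.1% ± 2.41 in NC (SD over 4 and 3 mouse ids, exact permutation p = 0.114, adjusted p = 0.838). That of Tdpoz2 was 100% ± 0 in each injected group and 79.2% ± 36.1 in NC (exact permutation p = 1 for Let7d and 0.429 for Let7e and mi699a-5p). Every mouse id but NC replicate 2 was tied at 100%, so these p-values follow from the group sizes and nothing is read from them. The mean share of Arg2 was 37.6% ± 15.7 in Let7d, 74.0% ± 26.4 in Let7e, 70.5% ± 22.3 in mi699a-5p and 48.6% ± 22.9 in NC (exact permutation p = 0.6, 0.257 and 0.314 against NC). Mean reads per blastomere differed between groups, from 2256180 in mi699a-5p to 3335120 in Let7d. With every blastomere thinned to 1575609 reads, Tdpoz1 was read in 83.3% of Let7d, 80% of Let7e, 90.5% of mi699a-5p and 81.8% of NC blastomeres, and Arg2 in 38.9% of Let7d, 65% of Let7e, 66.7% of mi699a-5p and 45.5% of NC blastomeres.

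Of a list of 64 genes known for transcription at the 2-cell stage 14 were measured, the 4 members included. Against NC the log2 fold change was above 0 for 7 of the 14 in Let7d, 10 in Let7e and 10 with mi699a-5p, beside 51%, 51.9% and 54.1% of all genes. Without the members it was above 0 for 4, 7 and 6 of 10 in the same order. In Let7e against Let7d it was above 0 for 8 of the 14, beside 50.8% of all genes, and for 7 of 10 without the members. Over all genes, those under an unadjusted p of 0.05 were 2.65% higher and 2.04% lower in Let7d, 2.33% and 1.69% in Let7e, and 3.2% and 2.31% in mi699a-5p, each against NC, and 2.79% and 2.6% in Let7e against Let7d. In Let7d against NC 2 of the 14 were above NC and 1 below at an unadjusted p under 0.05, with a median log2 fold change of 0.04 beside 0.01 over all genes. Dppa2, which acts upstream of the 2-cell program in mouse embryonic stem cells, averaged 603 ± 42.7 CPM in Let7d and 372 ± 28.7 in NC (0.58 ± 0.21, edgeR p = 0.0134). The homeobox gene Obox8 averaged 242 ± 85.1 CPM in Let7d and 75.8 ± 76.9 in NC (1.62 ± 0.76, p = 0.0487). Ddit4l, an inhibitor of mTOR signalling, averaged 15.8 ± 5.09 CPM in Let7d and 39.4 ± 26.8 in NC (-1.40 ± 0.63, p = 0.0397). In Let7e against NC Dppa2 alone was under an unadjusted 0.05 (557 ± 72.6 and 372 ± 28.7 CPM, 0.57 ± 0.20, p = 0.0112), and the median of the list was 0.23 beside 0.02. In mi699a-5p against NC it was Tdpoz1 alone, with a median of 0.28 beside 0.04, or 0.12 over the 10 genes that are no members. In Let7e against Let7d none was, and Ubtfl1 (0.58 ± 0.29) and Obox6 (0.35 ± 0.23) had the smallest p. By edgeR 0 of the 14 passed the adjusted threshold in any comparison.

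Among genes that act on arginine and polyamines, the pathway of Arg2, 27 of 51 were measured and 0 passed the adjusted threshold. The polyamine transporter gene Atp13a3 was above NC in all 3 comparisons at an unadjusted p under 0.05, at 520 ± 86.2 CPM in Let7d, 442 ± 84.3 in Let7e, 465 ± 55.5 in mi699a-5p and 298 ± 35.7 in NC, with log2 fold changes of 0.68 ± 0.22, 0.55 ± 0.21 and 0.60 ± 0.21. Amd1, which makes the aminopropyl donor for spermidine, averaged 505 ± 24.3 CPM in mi699a-5p and 315 ± 83.2 in NC (0.67 ± 0.24, p = 0.0117). Ass1, an enzyme of arginine synthesis, averaged 6.78 ± 3.56 CPM in Let7d and 21.5 ± 14.7 in NC (-1.80 ± 0.74, p = 0.0258). Prmt1, which methylates arginine in proteins, averaged 116 ± 87.9 CPM in Let7e and 63.4 ± 13.7 in NC (0.85 ± 0.40, p = 0.0489). In Let7e against Let7d none was under an unadjusted 0.05, and Azin1 (0.54 ± 0.29) and Prmt1 (0.76 ± 0.40) had the smallest p. The median of the list against NC was -0.10 in Let7d, -0.01 in Let7e and -0.07 with mi699a-5p, and 0.11 in Let7e against Let7d.

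Of 63 genes for BTB proteins and cullin 3 ligase parts, the group to which the Tdpoz proteins belong by their domain, 43 were measured, and again 0 passed the adjusted threshold. Cand1, which exchanges the substrate receptors of cullin ligases, was above NC at an unadjusted p under 0.05 in each comparison, at 1279 ± 276 CPM in Let7d, 1364 ± 514 in Let7e, 1155 ± 149 in mi699a-5p and 768 ± 137 in NC, with log2 fold changes of 0.62 ± 0.28, 0.81 ± 0.26 and 0.56 ± 0.26. Here too the NC mouse ids are the same in each comparison. Klhl15 averaged 68.7 ± 37.0 CPM in Let7d and 27.2 ± 11.3 in NC (1.23 ± 0.49, p = 0.0214). In mi699a-5p against NC 4 of the 43 (3 of the 40 that are no members) were higher and 0 lower at that level, beside 3.2% and 2.31% of all genes: Tdpoz1, Cand1, Klhl7 (50.5 ± 18.6 and 17.5 ± 8.61 CPM, 1.52 ± 0.51) and Kctd10 (126 ± 21.7 and 82.9 ± 6.97 CPM, 0.58 ± 0.25). Klhl11 was higher (2.16 ± 0.98) and Spop, the adaptor that the Tdpoz proteins resemble, lower (-0.65 ± 0.30) in Let7e against Let7d, at unadjusted p of 0.0408 and 0.0455. The medians were 0.19, 0.07 and 0.10 against NC and -0.14 in Let7e against Let7d.

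Lists for the states on either side of the 8-cell stage were counted the same way, and 0 of their genes passed the adjusted threshold. Of 14 measured maternal oocyte transcripts, 0 in Let7d, 1 in Let7e (Omt2b, 1.66 ± 0.50) and 2 in mi699a-5p (Omt2b higher at 1.03 ± 0.49 and Zp3, which codes for a zona pellucida protein, lower at -1.09 ± 0.46) were under an unadjusted 0.05 against NC. Of 17 pluripotency and inner cell mass genes the same held for 0 in Let7d, 1 in Let7e (Klf2, 1.16 ± 0.40) and 2 in mi699a-5p (Klf2 at 0.96 ± 0.40 and Pou5f1 at -0.79 ± 0.32). Of 14 trophectoderm genes it held for 3 in Let7d (Lrp2, Fgfr2 and Dab2, all higher), 2 in Let7e (Gata3 and Cldn4, both lower) and 1 in mi699a-5p (Cldn7, higher). In Let7e against Let7d, 1 maternal gene was lower (Omt2a), 1 pluripotency gene higher (Klf2) and 3 trophectoderm genes lower (Gata3, Lrp2 and Fgfr2). The 2 measured cumulus and granulosa genes, Nr5a2 and Amhr2, and the 1 measured sperm list gene, Odf2, gave none in any comparison, and 0 of 7 blood markers had a row. Fold changes were above 0 for 9, 8, 8 and 6 of the 14 maternal genes in Let7d, Let7e and mi699a-5p against NC and Let7e against Let7d. In the same order they were above 0 for 5, 8, 9 and 11 of the 17 pluripotency genes. For the 14 trophectoderm genes these counts were 9, 8, 6 and 4. Of all genes 51%, 51.9%, 54.1% and 50.8% were above 0.

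The genes whose level followed a member most closely over the 14 mouse ids were picked by Pearson's correlation of log2 CPM among 7271 genes, as a description over points that share libraries. For Tdpoz1 they were Hspa5, the chaperone of the endoplasmic reticulum (r = 0.93), Zfp638 (0.91), Fxr1, an RNA-binding protein gene (0.90), Ccnh, the gene of cyclin H (0.88), and Rbm12b2 (0.85). Over the 81 blastomeres, with the mean of each mouse id taken off, these correlations were 0.28, 0.28, 0.20, -0.11 and 0.14. For Tdpoz2 they were Fbxo38, Rfc4, Abce1, Sf3b3 and Tm9sf4 (0.82 to 0.78, and -0.03 to 0.32 over blastomeres), and for Tdpoz4 Lmbrd1, Ddb2, Csnk1e, Gpt2 and Hsp90b1 (0.88 to 0.80, and -0.10 to 0.22). For Arg2 they were Klhl11, Cltb, Alms1, Ogfod3 and Babam2 (0.82 to 0.79, and -0.28 to 0.19). No member was among the genes most like another member.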

How the data were processed

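Values are the authors' deposited raw read counts per gene and blastomere, aligned with STAR to GRCm38.p6 per the submitters' processing notes; the counting program and its handling of multi-copy reads are not given in the sources used here. Of 92 labelled blastomeres 82 have a column, and 10 were not analysed here. The pair of Let7d columns that agreed within sampling noise (chi-square of 1.05 per gene, next pair 28.7, of 3321 pairs) was summed. Symbols came from GENCODE M21 (7878 of 7886 matched).

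Blastomeres are not replicates, so counts were summed per mouse id (6329464 to 24037593 reads). Genes were tested with edgeR 4.0.16 (R 4.3.3; TMM, quasi-likelihood F test, 1 fit of all 4 groups, 10 residual degrees of freedom, 0 genes removed by filterByExpr), with Benjamini-Hochberg adjustment over 7886 genes at 0.05. The script was tested on simulated data. Errors of fold changes are standard errors, and CPM use total counts. P-values measure the spread between mouse ids, which may be technical, and since each group has its own mouse ids, a batch shared by a group cannot be told apart from the injection. Shares were compared by exact permutation over mouse ids (scipy). Floors (3 reads) cover counting error only, since reads without molecular identifiers are not independent molecules.

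Named genes were the 4 members, list genes at an unadjusted p under 0.05 (at most 4 per direction, otherwise the 2 smallest p), and the 5 genes of highest Pearson correlation (mean of at least 10 CPM, prior count 2). Members, lists and comparisons were chosen with earlier results of these data known. Alternatives were other normalizations, filters and tests (DESeq2 1.42.0, limma 3.58.1), thinning, a replicate block and leaving out each mouse id.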

Additional observations from a re-analysis of the deposited data

Results flagged for a closer look

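Arg2 in mi699a-5p replicate 2 stood far from the other mouse ids of its group, at 119 CPM against 5.42, 8.33 and 13.7 CPM, and its gap to the next one took 0.927 of the whole range. Of its 7 blastomeres 3 held 81.4, 409 and 476 CPM. The part of the low totals of 2 of these blastomeres in the value was not tested.

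The share of blastomeres with a Tdpoz1 read in mi699a-5p replicate 2 was 85.7%, where the other 3 mouse ids of the group stood at 100%. It comes from 1 blastomere of 7 without a read, and with the other mouse ids tied at 100% any lower share would have been picked out, so nothing is read from it. Of 16 sets of 4 values with any spread 2 were picked out, where chance gives about 1 in 20 for values with no ceiling.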

How the results depend on the processing

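None of the 16 fold changes of the 4 members passed the adjusted threshold under any of 272 alternatives (lowest adjusted p 0.409, Tdpoz1 in mi699a-5p by DESeq2), and 13 gave the other direction. The settings with no filter and with the pair of Let7d columns kept apart repeated the main fit, so they could not differ from it. Tdpoz1 in mi699a-5p ranged from 1.19 to 2.09 and Tdpoz1 in Let7d from 0.97 to 1.68. Arg2 in Let7e turned to 0.49 with limma on mean log2(CPM + 1) of blastomeres. The replicate numbers did not pair the mouse ids (mean correlation of same-numbered deviations from -0.036 to 0.044); with the replicate block Tdpoz4 in Let7e gave -0.26, Arg2 in Let7e 0.17 and Tdpoz2 in Let7e against Let7d 0.11, and 0 genes changed in Let7d against NC in place of 1. Leaving out each mouse id moved Tdpoz4 in Let7e between -0.38 and 0.74, Arg2 in Let7e between -0.73 and 0.039, Arg2 in mi699a-5p between -0.15 and 2.17 and Tdpoz2 in Let7e against Let7d between -0.56 and 0.15. Without a change of sign it moved Arg2 between -2.07 and -0.37 in Let7d and between 0.13 and 1.81 in Let7e against Let7d, and Tdpoz4 between 0.06 and 1.03 in Let7d and between 0.04 and 1.14 in mi699a-5p. Tdpoz1 moved between 0.15 and 0.91 in Let7e and between -1.14 and -0.52 in Let7e against Let7d, Tdpoz2 between 0.61 and 1.5 in Let7d, 0.47 and 1.36 in Let7e and 0.57 and 1.44 in mi699a-5p, and Tdpoz4 between -0.78 and -0.04 in Let7e against Let7d. Over all genes, leaving out mouse ids gave 0 to 1 changed genes in Let7d, 0 to 2 in mi699a-5p and 0 to 1 in Let7e against Let7d; the Let7d count was 0 without Let7d replicate 1 or 3 or NC replicate 1 or 3, and the counts were 2 without mi699a-5p replicate 3 and 1 without Let7d replicate 2. The Let7d count was also 0 with total counts, with only the 2 groups compared and with limma, and DESeq2 gave 3 in Let7d, 6 in mi699a-5p and 8 in Let7e against Let7d, and 0 in Let7e against NC. None of 128 alternatives for the shares passed (lowest exact permutation p 0.0286, adjusted 0.343). That p is the smallest possible with 4 against 3 mouse ids, and the smallest possible with 3 against 3 is 0.1. With so few mouse ids most of these alternatives could not pass whatever the shares, so nothing is read from this count. The difference in the share of Tdpoz1 between Let7e and NC, -7.99 points, was 25.3 with at least 10 reads asked for, 11.5 with 1 CPM and 31.9 with 10 CPM. Leaving out mouse ids moved the share differences between -0.40 and 13.9 points (Tdpoz1, Let7d), -18.6 and 2.2 (Arg2, Let7d), -15.3 and 1.39 (Tdpoz1, Let7e), -1.04 and 15.6 (Tdpoz4, Let7e) and -7.14 and 9.52 (Tdpoz4, mi699a-5p), and that of Tdpoz2 was 0 without NC replicate 2. The SD among blastomeres with a pseudocount of 0.1 and 10 CPM was 2.87 and 0.98 for Tdpoz1, 1.85 and 0.72 for Tdpoz2, 2.76 and 0.90 for Tdpoz4 and 3.79 and 1.06 for Arg2. Spearman's in place of Pearson's correlation kept 4 of the 5 genes most like Tdpoz1, 3 for Tdpoz2, 4 for Tdpoz4 and 0 for Arg2. The causes of these moves were not tested. With 3 or 4 mouse ids a group the intervals are wide, and the depth sets the level below which a blastomere without a read cannot be told from one that lacks the transcript.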

Other observations

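Because Arg2 and Tdpoz1 were highest of all 14 mouse ids in mi699a-5p replicate 2, the other 12 measured 2-cell genes were looked up there. Of these, 2 also had their highest value in it, Ddit4l and Zfp809, beside 8.23% of all genes (649 of 7886). Obox6, a homeobox gene, and Kdm5b, a histone demethylase gene, had their lowest value there, and Tdpoz2 and Tdpoz4 ranked at 8 and 11.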
